A study of Arabidopsis thaliana with 12 samples.

Results

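The genes described here are the chaperone and prolyl isomerase genes that could be found by name or locus on an array of Arabidopsis thaliana. They were the probes annotated to exactly 1 gene whose recorded names held DnaJ, chaperone, chaperonin, heat shock, cyclophilin, FKBP or peptidyl-prolyl, without thioredoxin, plus the locus AT1G74070. Of 692 probes with 1 gene symbol, among 3437 with values, 4 met this rule. They were the chaperonin genes Cpn60beta3 (AT5G56500) and Cpn60beta4 (AT1G26230), the copper chaperone gene CCS (AT1G12520), and AT1G74070. The rule was applied to symbols and synonyms, since no longer gene descriptions were used here. Genes of these kinds without such a symbol or synonym could not be found, so the 4 may be only part of those on the array. None of the 869 probes with several genes held such a name, and 1876 probes without an annotation entry could not be searched. AT1G74070 entered by its locus as one of the chaperone and prolyl isomerase genes. The gene tables used here give it no name, so its kind of protein was not checked. None of the other 3 had a name of the DnaJ, heat shock, cyclophilin or FKBP kind. CCS matched the word chaperone but is a metallochaperone.

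Chaperones bind unfolded or partly folded proteins and help them reach their native state. Chaperonins are a class of them that form barrel-shaped complexes in which a protein folds out of contact with others. In chloroplasts the chaperonin is built of Cpn60 alpha and Cpn60 beta subunits, several of which are encoded by small gene families, and Rubisco is its best known client. A copper chaperone works differently, since it carries a metal ion to an enzyme: CCS delivers copper to copper/zinc superoxide dismutase. Prolyl isomerases, the cyclophilins and FKBPs among them, speed up the turning of the peptide bond before a proline, a slow step in the folding of many proteins.

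The series measured total RNA on 1-channel arrays in 6 samples titled WT and 6 titled stn7, all of the Columbia 0 ecotype. STN7 is the thylakoid protein kinase of state transitions, in which light-harvesting antenna proteins move between the photosystems. The labels give no tissue, age, growth condition or mutant allele, and 5 of the 6 samples titled stn7 carry the source name of the WT. STN7 itself was on 0 of the annotated probes, so its level could not check the labels. Samples were grouped by title. Over the array, the deviations of a sample from its group mean correlated most with those of its consecutive number (1 with 2, 3 with 4, 5 with 6; r between 0.188 and 0.632). Such samples were averaged, which gave 3 replicates per group, and this small number limits the precision. Separate plants are not named in the labels, so the p-values cover the spread between these samples, which may be technical. In bulk RNA, fewer cells of a type and less RNA per cell cannot be told apart. Of 13 leaf, root, seed and senescence genes only the leaf antenna gene LHB1B2 had a probe with 1 gene, with intensities from 7.26 to 8.95 in WT and from 7.38 to 11.98 in stn7, so other tissues were not checked for.

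Levels are given as quantile-normalized intensities, relative values that can be compared between samples of a gene and not between genes. Intensities under 0.0702, the 10th percentile of all values, were set to that floor. All 4 genes lay above it in all 12 samples, and none had a deposited value of exactly 0. Cpn60beta4 and CCS lay near it, with a lowest stn7 sample of 1.22 and 1.53 times the floor. For Cpn60beta3 it was 2.52 times and for AT1G74070 12.1 times the floor. Each stn7 minus WT difference is on the log2 scale and was tested with limma over 3248 features, with Benjamini-Hochberg adjustment over all of them and a threshold of 0.05.

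AT1G74070 rose in the stn7 samples, while the 2 chaperonin genes and CCS did not pass the test. Thus 1 of the 4 genes passed, against 15.2% of all features in either direction, and 6.53% of all features passed as higher and 8.68% as lower in stn7. With 4 genes, 1 of which was added by locus with its rise known from earlier processing of these data, this count does not set the group apart from other features. The median difference of the 4 genes was -0.12, with 1 above 0 and 3 below, against 0.05 over all features.

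**Figure D1:**
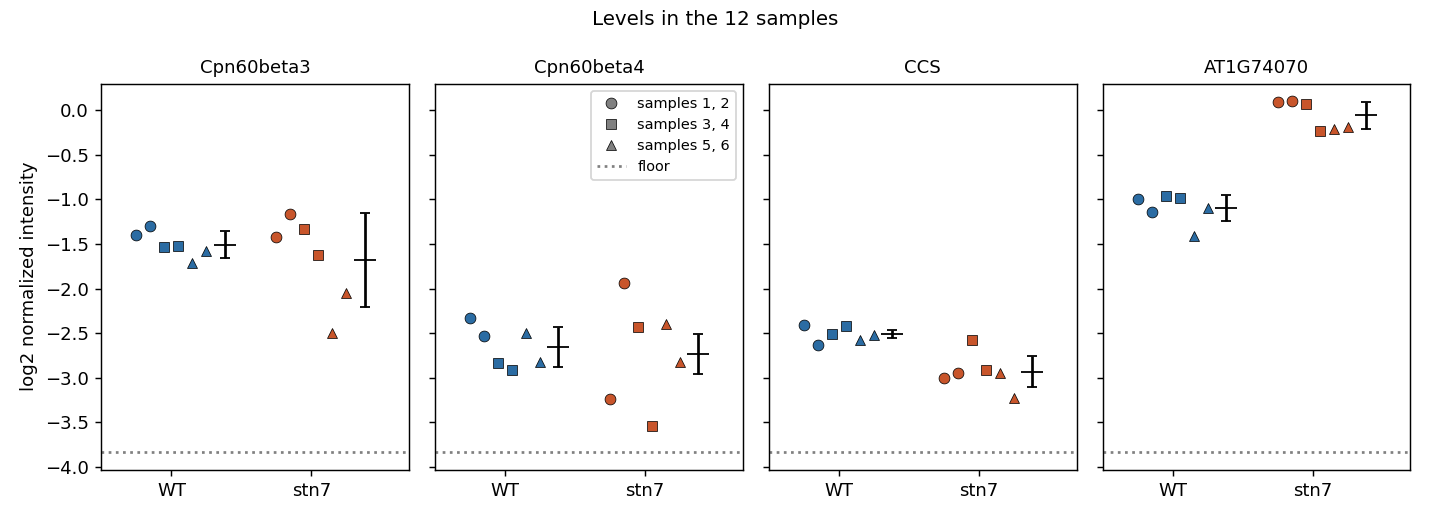
Log2 normalized intensity of the 4 genes in the 6 WT and 6 stn7 samples. Each symbol is a sample, samples that were averaged share a shape, the bar beside each group is the mean ± SD of its 3 averaged replicates, and the dotted line is the floor at -3.83. Panels hold different probes, so heights compare samples within a panel only. In AT1G74070 all stn7 samples lie above all WT samples, and in Cpn60beta4 the stn7 samples spread more widely than the WT samples.

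Cpn60beta3 encodes a beta subunit of the chaperonin. Its intensity in WT samples 1 to 6 was 0.378, 0.407, 0.346, 0.348, 0.305 and 0.334. In stn7 samples 1 to 6 it was 0.374, 0.447, 0.398, 0.324, 0.177 and 0.242. Stn7 samples 1 to 4 lay within or above the WT range, and stn7 samples 5 and 6 lay below every WT sample. The groups overlapped, with means of -1.51 ± 0.15 log2 in WT and -1.68 ± 0.52 log2 in stn7 (SD, n = 3). The difference was -0.17 log2 (SE 0.26, limma, adjusted p = 0.691). Its 95% interval ran from -0.78 to 0.44 log2, that is from 0.581-fold to 1.35-fold of the WT level. Without the averaged stn7 samples 5 and 6 the difference was 0.12 log2, and in the values as deposited it was 0.08 log2, neither of which passed.

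Cpn60beta4 encodes another beta subunit, known in Arabidopsis for its need in folding NdhH, a subunit of the chloroplast NDH complex. Its WT intensities were 0.199, 0.173, 0.140, 0.133, 0.177 and 0.141. In stn7 samples 1 to 6 they were 0.106, 0.261, 0.185, 0.0857, 0.189 and 0.142. The highest and the 2 lowest of the 12 values were all stn7 samples, and the groups overlapped. Samples that were averaged with each other differed by up to 2.46-fold in stn7 (samples 1 and 2), against at most 1.26-fold in WT. Over the 6 samples of a group the SD was 0.59 log2 in stn7 and 0.23 log2 in WT. The averaged replicates gave -2.66 ± 0.22 log2 in WT and -2.73 ± 0.23 log2 in stn7 (SD, n = 3). After averaging the spread of the stn7 group was close to that of the WT group, since each average held a higher and a lower sample. The difference was -0.07 log2 (SE 0.19, limma, adjusted p = 0.825), with a 95% interval from -0.51 to 0.36 log2. Its sign was not stable, with 0.11 log2 in the values as deposited and 0.10 log2 with a floor at the 20th percentile, where it did not pass either.

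CCS encodes the chaperone that loads copper into copper/zinc superoxide dismutase, an enzyme that removes superoxide. In WT samples 1 to 6 its intensity was 0.188, 0.161, 0.176, 0.187, 0.167 and 0.174. In stn7 samples 1 to 6 it was 0.125, 0.130, 0.168, 0.133, 0.130 and 0.107. Of the stn7 samples 5 lay below every WT sample, and sample 3 lay inside the WT range. The averaged replicates did not overlap, as was also the case for 38.7% of all features. Their means were -2.51 ± 0.04 log2 in WT and -2.93 ± 0.17 log2 in stn7 (SD, n = 3). The difference was -0.42 log2 (SE 0.15), a 1.34-fold lower mean, with an unadjusted p of 0.0238 and an adjusted p of 0.0971 in limma. It did not pass. Taken as 12 separate samples CCS passed with the same difference (limma, adjusted p = 0.00553), in a fit that called 1283 features. That fit takes correlated consecutive samples as independent, so its p-value is too small to count as evidence of a fall. In the values as deposited, where WT samples ran from 0.138 to 0.197 and stn7 samples from 0.105 to 0.182, the difference was -0.24 log2 (SE 0.21). The size of the CCS difference also depended on the treatment of low values, with -0.29 log2 when the floor was added as an offset and -0.18 log2 with a floor at the 20th percentile (limma, adjusted p = 0.181 and 0.267).

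AT1G74070 had intensities of 0.499, 0.454, 0.512, 0.507, 0.377 and 0.466 in WT samples 1 to 6. In stn7 samples 1 to 6 they were 1.07, 1.07, 1.05, 0.852, 0.864 and 0.879. All 6 stn7 samples lay above all 6 WT samples, as in 10.7% of all features, while in 22% the samples of both groups were apart in either direction. Within the stn7 group samples 1 to 3 lay above samples 4 to 6, and the lowest of them was still above the highest WT sample. The means were -1.10 ± 0.14 log2 in WT and -0.06 ± 0.15 log2 in stn7 (SD, n = 3). The difference was 1.04 log2 (SE 0.16), a 2.05-fold higher mean with a 95% interval from 1.60-fold to 2.64-fold, and it passed (limma, adjusted p = 0.0114). Ordered by rise it stood at place 43 of 3248 features and at place 7 among the 650 single-gene features. AT1G74070 was added with its rise known from earlier processing of these data. Its place, its lack of overlap and its adjusted p are therefore a description and give no independent support. In the values as deposited, where WT samples ran from 0.313 to 0.521 and stn7 samples from 0.888 to 1.05, the difference was 1.18 log2 and passed as well.

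Leaving out any 1 of the 12 samples kept the difference of AT1G74070 between 0.99 and 1.09 log2, and it passed in all 12 cases. The other sample of the pair then stood for the replicate, so each group kept 3 replicates and little could change. Leaving out 1 averaged replicate kept the difference between 0.96 and 1.11 log2. It then passed in 3 of 6 cases and missed the threshold without WT samples 1 and 2 (limma, adjusted p = 0.0542), without WT samples 3 and 4 (adjusted p = 0.0526) and without stn7 samples 1 and 2 (adjusted p = 0.0582). Those fits called 45, 30 and 4 of the 3248 features, and the difference of AT1G74070 in them was 1.05, 1.10 and 0.96 log2.

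**Figure D2:**
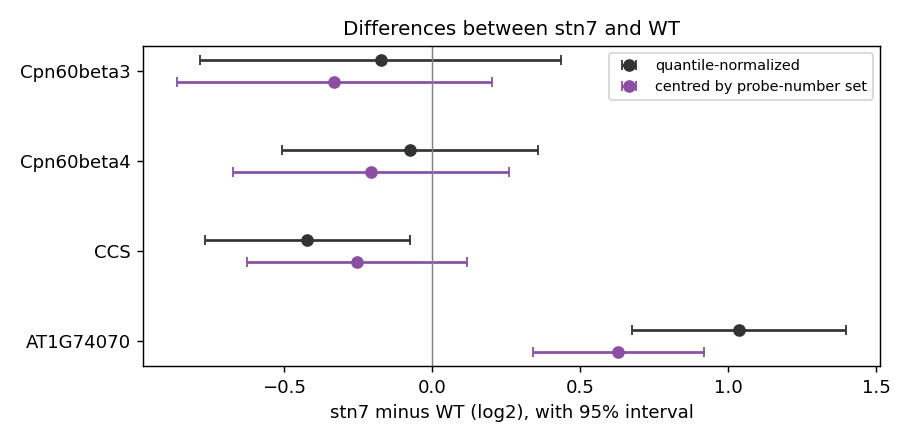
The stn7 minus WT difference of each gene on the log2 scale with its 95% interval from limma (n = 3 per group), from quantile-normalized values and after centring by probe-number set. The intervals of Cpn60beta3 and Cpn60beta4 hold 0 in both versions, that of CCS lies below 0 only before centring, and that of AT1G74070 lies above 0 in both.

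On this array the differences move with the probe number. The probes were divided into 48 sets by their place in a repeating cycle of numbers, and the median difference of a set ran from -0.62 to 0.63 log2. Each of the 4 genes was therefore set beside the other features of its own set. The set of AT1G74070 had the sixth highest median, and its 65 other features had a median difference of 0.41 log2, with 57 of them above 0, 17 called higher and 0 called lower. Of these 65 features 2 rose more than AT1G74070, and the gene lay 0.63 log2 above their median. With each sample centred on the median deviation of the set, its difference was 0.63 log2 (SE 0.13), a 1.55-fold higher mean, and it passed (limma, adjusted p = 0.0283) among 5.6% of all features, or 1.75% called higher. All 3 centred stn7 replicates lay above all 3 centred WT replicates, as in 18.6% of all features, while 34.6% were apart in either direction. With 1 averaged replicate left out as well, the centred difference stayed between 0.59 and 0.65 log2, but it passed only without stn7 samples 5 and 6. The part of the probe number in the rise was not tested beyond these values.

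The other 3 genes each lay below the median of their set. The 64 other features of the Cpn60beta3 set had a median of 0.27 log2, with 57 of them above the gene. For Cpn60beta4 it was 53 of 60, with a median of 0.21 log2. For CCS it was 50 of 69, with a median of -0.08 log2, and 11 of these were called lower. After centring the differences were -0.33 log2 for Cpn60beta3 (SE 0.23), -0.21 log2 for Cpn60beta4 (SE 0.20) and -0.25 log2 for CCS (SE 0.16). None of the 3 passed (limma, adjusted p = 0.403, 0.559 and 0.364), and in all 3 the centred averaged replicates of both groups overlapped.

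**Figure D3:**
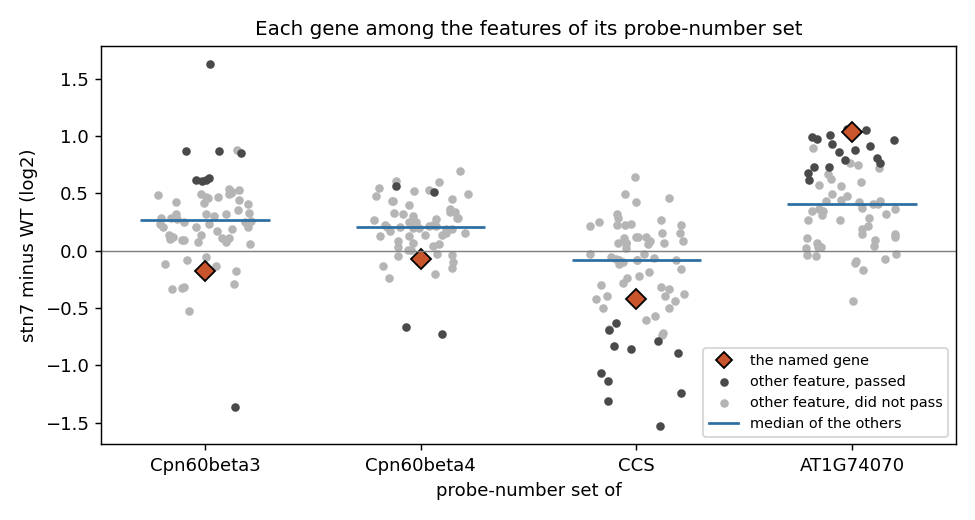
The stn7 minus WT difference (log2) of each gene, as a diamond, among the other features of its probe-number set, as dots that are dark where the feature passed the test. Blue lines are the medians of the other features, which lie at 0.27, 0.21, -0.08 and 0.41 log2 from left to right. AT1G74070 lies near the top of a set that is itself shifted upward, and the other 3 genes lie below their set's median.

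Among 51 plastid genes for Clp, FtsH and Deg proteases, protein import and targeting, GrpE and trigger factor, 2 were measured by a probe of their own, AT1G68660 and AT5G55220. These 2 did not meet the rule by symbol or synonym. Whether a longer gene description would have made them members was not checked, so they are not a set of genes known to lie outside the group. Neither passed, nor did either reach an unadjusted p under 0.05 in limma. AT1G68660 ranged from 0.502 to 0.617 in WT and from 0.370 to 0.530 in stn7, so the groups overlapped, with a difference of -0.26 log2 (SE 0.16, adjusted p = 0.288). AT5G55220 was at the floor in 6 of the 12 samples and reached 0.135 in WT and 0.115 in stn7. Its difference of -0.01 log2 (SE 0.22) therefore rests on values without an order in those 6 samples.

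**Figure D4:**
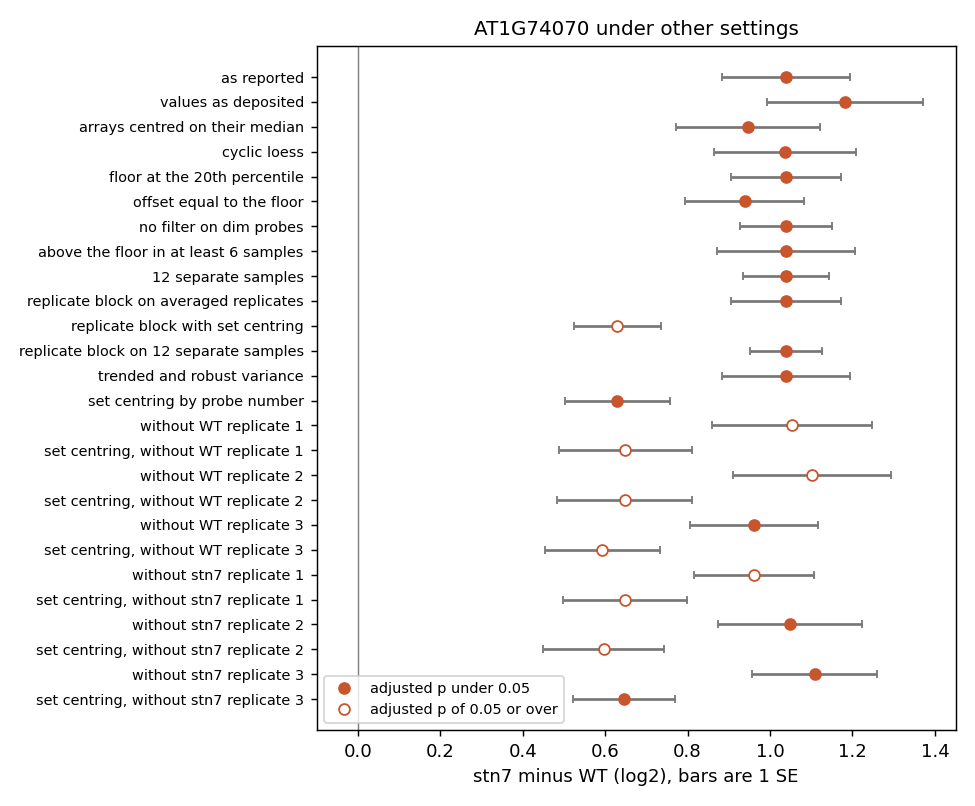
The stn7 minus WT difference of AT1G74070 (log2, bars are 1 SE) under each setting run, apart from single samples left out, where a replicate is the average of a consecutive pair of samples. Filled circles passed an adjusted p of 0.05 in limma and open circles did not. Every setting shown gave a difference above 0, between 0.59 and 1.18 log2, and settings with centring by probe number lie lowest.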

How the data were processed

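Arrays of 6 WT and 6 stn7 samples, grouped by title, were used. The authors deposited 1 table of linear, non-negative intensities whose means per sample lay between 1.01 and 1.07 and medians between 0.297 and 0.414. No header or label states the scanner, background correction or scaling, so signal over background is unknown. Between 4.66% and 6.58% of a sample's values were 0. Values were quantile-normalized, floored, and log2-transformed. Left out were 188 probes at the floor in all samples, and the probes of 1 locus were averaged. Of 692 single symbols 690 were found in the RefSeq gene table (assembly TAIR10.1), used for names only. Consecutive samples were averaged, a decision made from the values, since the labels do not pair them. Same-numbered averaged replicates of both groups correlated between 0.0901 and 0.171, not all over 0.1, so no replicate block was used. limma 3.58.1 in R 4.3.3 gave two-sided tests. Figures were drawn with matplotlib 3.10.9.

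The genes, lists, settings and probe-number sets were chosen with earlier results of these data known. Named are all 4 genes and the 2 measured genes of the protease, import, targeting, GrpE and trigger factor lists. Planned sequence features were not analysed here, as no sequences were used. Alternatives covered scaling, floor, dim filter, averaging, replicate block, variance model, centring and samples left out.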

Additional observations from a re-analysis of the deposited data

How the results depend on the processing

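No gene that passed, as reported or in an alternative, changed direction under any setting run. Of the 4 genes 1 passed as reported, where 494 of the 3248 features were called. Taken as 12 separate samples 2 passed, in a fit that called 1283 of the 3248 features. With a replicate block on 12 separate samples 2 passed as well, with 1442 of the 3248 features called. In both fits CCS joined AT1G74070 at -0.42 log2. Both of these fits took consecutive samples as separate although they were correlated. With the replicate block on averaged replicates AT1G74070 passed (1.04 log2, limma, adjusted p = 0.0267). With the replicate block and set centring together 0 of the 4 genes passed (AT1G74070 at 0.63 log2, limma, adjusted p = 0.0535; 117 features called). Between 0 and 1 of the 4 passed with 1 averaged replicate left out, with or without set centring. Those fits called between 4 and 284 of the 3248 features, or between 12 and 120 with set centring. Each single sample left out gave 1 of the 4, in fits that called between 419 and 493 features. The median difference of the 4 genes, -0.12 log2 as reported, was 0.10 in the values as deposited, and between -0.31 and 0.01 with a sample or replicate left out. The difference of CCS stayed below 0 throughout, from -0.52 log2 (without stn7 samples 3 and 4) to -0.17 (set-centred, without WT samples 3 and 4), and was -0.29 with an offset and -0.18 with the higher floor. None of the genes on the protease, import and co-chaperone lists passed under any setting.

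Among differences that never passed, signs turned in the values as deposited for Cpn60beta3 (0.082 log2), Cpn60beta4 (0.11) and AT5G55220 (0.076), with a floor at the 20th percentile for Cpn60beta4 (0.096), and with cyclic loess for AT5G55220 (0.022). With a sample or replicate left out, set-centred fits included, they ran from -0.51 to 0.12 log2 for Cpn60beta3, -0.31 to 0.14 for Cpn60beta4, -0.30 to 0.20 for AT5G55220 and -0.32 to 0.0089 for AT1G68660. The causes were not tested.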
